A study of Mus musculus with 10 samples.

Results

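The transcripts of 10 receptors for nutrients and microbial metabolites were followed in sorted cells of the mouse small intestine. The 10 genes were chosen by name, as G protein-coupled receptors for fatty acids, monoacylglycerols, amino acids and short-chain acids, and all 10 were among the 54532 genes of the deposited table. They are Ffar1, Ffar2, Ffar3, Ffar4, Gpr119, Casr, Gpr142, Lpar5, Olfr78 and Olfr558. The cells came from 5 litter-matched Gucy2c-GFP mice, aged 10 weeks, on the outbred CD1/ICR background, in which a transgene expresses green fluorescent protein under the promoter of Gucy2c, the gene of the intestinal guanylate cyclase receptor GUCY2C. Live single epithelial cells of each mouse were sorted by reporter brightness into GUCY2Chi cells and GUCY2Cmed cells, 20000 per library, which gave 5 libraries of each kind, with the numbers 2, 7, 12, 14 and 15 taken as those of the mice. All mice carried the reporter and the labels name no treatment, so each group is a gate on reporter brightness and may hold several cell types.

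Free fatty acid receptors and their relatives lie on enteroendocrine cells, the scattered hormone-releasing cells of the gut epithelium, and couple the arrival of a meal or of bacterial products to the release of incretins, cholecystokinin, peptide YY and other hormones. FFAR1 and FFAR4 bind long-chain fatty acids, GPR119 binds monoacylglycerols and fatty acid ethanolamides, and FFAR2, FFAR3 and the odorant receptors OLFR78 and OLFR558 bind short-chain or branched acids made by bacteria. CASR senses calcium and aromatic amino acids, GPR142 senses tryptophan, and LPAR5 is a receptor for lysophosphatidic acid that also responds to protein hydrolysates. Receptors coupled to Gs or Gq raise cAMP or calcium and favour secretion, whereas Gi restrains it.

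Between 10903958 and 15307932 counts fell on genes in each library. Of all genes, 15703 had more than 0.5 cpm, that is counts scaled to a common library size, in at least 3 libraries and were tested, and a call means an edgeR adjusted p under 0.01 over all of them. Gucy2c, the gene behind the gate, measured 1322 ± 526.1 cpm (SD, n = 5) in GUCY2Chi cells and 404.4 ± 64.72 cpm in GUCY2Cmed cells, with a log2 fold change of 1.71 (SE 0.32, adjusted p = 0.00187). Enteroendocrine markers were higher in the GUCY2Chi libraries: 23 of 24 were called higher, and their summed level was 44720 to 176600 cpm against 161 to 590.8 cpm. All 18 enterocyte markers were on average lower in GUCY2Chi cells, 4 of them past the threshold. The GUCY2Chi libraries of mice 12 and 15 stood apart, with summed enterocyte markers at 45.3% and 42.2% of the level in GUCY2Cmed cells of the same mouse, where the other 3 libraries had 5.76% to 6.85%. Results that rest on these libraries are given with and without them. Of 17 leukocyte markers none was called, with sums of 15.65 to 47.39 cpm in GUCY2Chi cells and 11.33 to 42.05 cpm in GUCY2Cmed cells, and S100a8 and S100a9 had no count. Tuft cell markers summed to 34.85 to 71.55 cpm in GUCY2Chi and 17.98 to 32.52 cpm in GUCY2Cmed cells, with 0 of 12 called higher and 1 lower. Markers of mesenchyme, smooth muscle and endothelium summed to 2.771 to 11.09 and 0.7509 to 1.311 cpm, with 3 of 4 tested called higher (Col1a2, Pecam1 and Vwf), and the defining genes Acta2, Myh11 and Cdh5 at or near 0. The sums of these lists did not overlap between the groups. Markers of forebrain neurons summed to 215.4 to 1519 cpm in GUCY2Chi and 16.14 to 820.3 cpm in GUCY2Cmed libraries, with none of 12 called. Snap25, which is on this list, measured 182 to 291 cpm in GUCY2Chi and 2.41 to 115 cpm in GUCY2Cmed libraries. It therefore made up most of the lowest GUCY2Chi sum. Goblet cell markers summed to 3018 to 23490 cpm in GUCY2Chi and 4871 to 13050 cpm in GUCY2Cmed libraries, with none of 8 called. The highest goblet sum, in GUCY2Chi cells of mouse 2, was 373% of the level in GUCY2Cmed cells of that mouse. Markers of enteric neurons and glia summed to 78.86 to 304.1 and 3.854 to 137.9 cpm, with 2 of 7 tested called higher (Ret and Chrna3). The part of these in the receptors' levels was not tested.

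Of the 10 receptors, 9 were called higher in GUCY2Chi cells and Lpar5 was called lower. Over all genes tested, 13.9% were called higher and 8.79% lower, so that 61.3% of all calls were higher (83.9% when libraries were scaled by their size alone). The 9 higher receptors had every GUCY2Chi library above every GUCY2Cmed library, which held for 16.7% of all genes tested. Each of these 9 reached an exact two-sided permutation p of 0.00794 on log2 cpm, the smallest that 5 libraries against 5 allow. This test exchanges libraries freely, and a test within the 5 mice could not go below 0.0625. All 10 receptors passed the filter on low values, but 7 passed only through their GUCY2Chi libraries, so those 7 had to differ between the groups, and the counts are a description of the list. The median log2 fold change of the 10 was 7.14, or 5.0 with Casr and Olfr558, which had no count in GUCY2Cmed cells, set at their lower bounds. The median over all genes tested was 0.09. In sorted bulk samples, fewer cells of a type and less RNA per cell cannot be told apart.

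**Figure D1:**
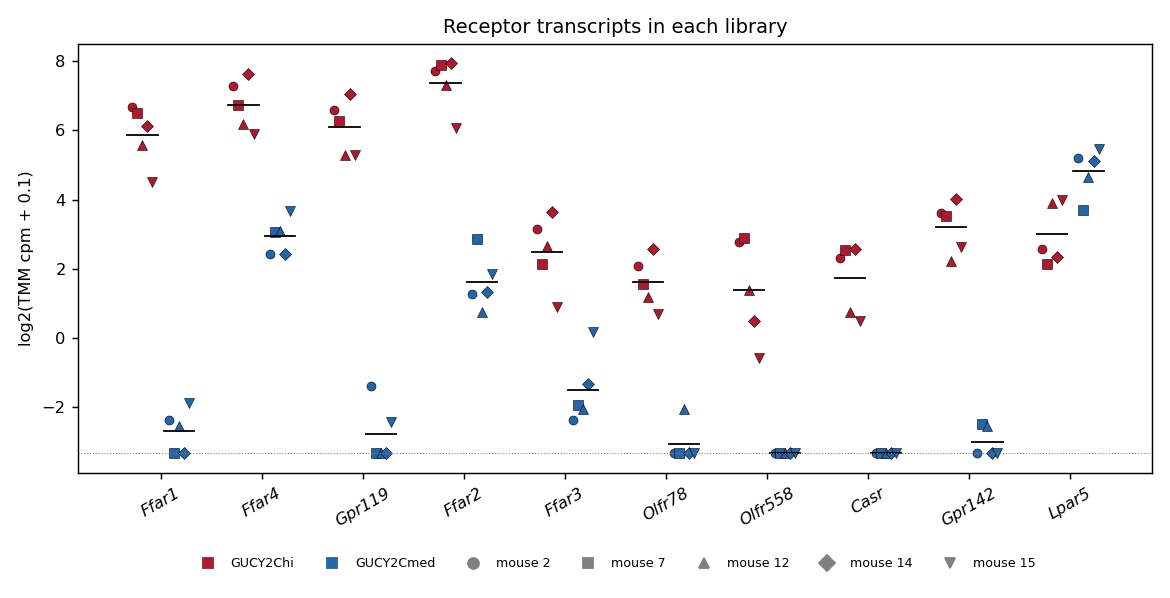
Level of each receptor in each library, as log2(TMM-normalized cpm + 0.1), with 1 symbol per mouse, red for GUCY2Chi, blue for GUCY2Cmed and a bar at each group's mean. The dotted line is the position of 0 counts. The groups do not overlap for 9 receptors, and for Lpar5 the blue symbols lie mostly above the red ones.

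The plot of receptor transcripts in each library shows 3 kinds of pattern. Ffar2 and Ffar4 were measured above 0.5 cpm in all 5 GUCY2Cmed libraries and were many times higher in GUCY2Chi cells. Ffar1, Gpr119, Casr, Gpr142, Olfr78 and Olfr558 had at most 3 counts in every GUCY2Cmed library, which was the case for 3.17% of all genes tested. Ffar3 lay between these, and Lpar5 went the other way. A level of 3 counts corresponds to 0.181 to 0.281 cpm, depending on the library, and levels at or under it are not distinguished from each other here.

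Among the receptors for long-chain lipids, Ffar4 (ENSMUSG00000054200, GRCm38 chr19:38097079-38114263, plus strand) was the most abundant. In mice 2, 7, 12, 14 and 15 in turn it measured 154, 107, 72.7, 196 and 59.6 cpm in GUCY2Chi cells, and 5.24, 8.27, 8.50, 5.26 and 12.7 cpm in GUCY2Cmed cells. Every GUCY2Chi library lay above every GUCY2Cmed library, and the mouse with the least Ffar4 in GUCY2Chi cells, mouse 15, had the most in GUCY2Cmed cells. The ratio within a mouse therefore ran from 4.70 in mouse 15 to 37.3 in mouse 14. The means were 117.9 ± 56.96 and 7.987 ± 3.051 cpm, with a log2 fold change of 3.88 (SE 0.39, adjusted p = 3.99e-05).

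Ffar1 (ENSMUSG00000044453, chr7:30857390-30861564, minus strand), the receptor that couples long-chain fatty acids to Gq, was nearly confined to the GUCY2Chi libraries in these data. It measured 103, 90.5, 47.9, 69.3 and 22.6 cpm in GUCY2Chi cells of mice 2, 7, 12, 14 and 15. In GUCY2Cmed cells of the same mice, 1, 0, 1, 0 and 2 counts were found. Over the 5 libraries of each group this is 4917 counts against 4, a ratio of 1040 after scaling for depth, with a 95% exact interval of 405 to 3810 that covers counting error only. The fitted log2 fold change was 9.81 (SE 0.65, adjusted p = 3.76e-06), a value that depends on the prior count added to near-zero libraries.

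Gpr119 (ENSMUSG00000051209, chrX:48667979-48674478, minus strand), the Gs-coupled receptor for monoacylglycerols, had the highest fitted change of the 10 receptors, 10.01 on the log2 scale (SE 0.71, adjusted p = 4.93e-06). Its GUCY2Chi libraries held 97.0, 76.6, 38.8, 132 and 39.1 cpm, and its GUCY2Cmed libraries 3, 0, 0, 0 and 1 counts. The pooled ratio was 1170, with a counting interval of 458 to 4300. That interval overlaps the one of Ffar1, so the data set no order between these 2 ratios. The lipid receptors thus split by what was left in GUCY2Cmed cells: Ffar4 had between 56 and 148 counts per GUCY2Cmed library, whereas Ffar1 and Gpr119 had at most 3.

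Ffar2 and Ffar3, the receptors for acetate, propionate and butyrate, lie on chromosome 7 beside Ffar1 and in the same orientation. Within a span of 43217 bases, Ffar2 (ENSMUSG00000051314, chr7:30818348-30823775) is followed after 30554 bases by Ffar3 (ENSMUSG00000019429, chr7:30854330-30856178), and Ffar3 after 1211 bases by Ffar1. Because all 3 genes read from the minus strand, transcription of Ffar1 runs towards Ffar3. The sequences upstream of the annotated starts of the 2 short-chain receptors are shown because these neighbours share their direction of change and differ in level. Each line gives 200 bases, 5′ to 3′ and ending just before the start, from RefSeq on GRCm38.p6, and capitals mark E-boxes (CANNTG, the core bound by basic helix-loop-helix factors) and the cAMP response element palindrome TGACGTCA.
Ffar2, chr7:30823776-30823975, minus strand: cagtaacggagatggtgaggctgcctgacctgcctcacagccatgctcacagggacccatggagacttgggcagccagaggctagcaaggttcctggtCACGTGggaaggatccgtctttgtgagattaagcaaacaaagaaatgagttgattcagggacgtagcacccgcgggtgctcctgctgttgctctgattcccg
Ffar3, chr7:30856179-30856378, minus strand: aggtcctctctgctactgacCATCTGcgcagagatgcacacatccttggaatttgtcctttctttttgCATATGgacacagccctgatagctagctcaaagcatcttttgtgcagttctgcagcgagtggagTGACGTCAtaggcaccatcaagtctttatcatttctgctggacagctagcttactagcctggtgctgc

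For Ffar2 the most upstream of several annotated starts is shown. The Ffar2 sequence holds 1 E-box and the Ffar3 sequence 2, with the palindrome 68 to 61 bases before the Ffar3 start. A match describes the letters only. Of 32851 RefSeq promoters searched on both strands over 250 bases upstream of the start, 66.2% hold an E-box and 1.55% the palindrome.

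Ffar2 had the highest cpm of the 10 receptors. Its GUCY2Chi libraries measured 209, 235, 157, 244 and 66.5 cpm in mice 2, 7, 12, 14 and 15, and its GUCY2Cmed libraries 2.34, 7.15, 1.58, 2.40 and 3.51 cpm. Mouse 15 was lowest among GUCY2Chi libraries and mouse 7 highest among GUCY2Cmed libraries, and these 2 mice had the smallest ratios, 19.0 and 32.8, against 89.1 to 101 in the other 3. The means of 182.1 ± 72.85 and 3.396 ± 2.205 cpm gave a log2 fold change of 5.74 (SE 0.51, adjusted p = 1.88e-05). Of 2513 windows of 50 bases in Ffar2 transcripts, 7 (0.279%) also occur in transcripts of other genes, and none of the windows searched for the other 9 receptors does. For Ffar1 these were 854 windows against a listed gene length of 4175 bases, and for Olfr78 3494 against 6033. Much of both genes was therefore not checked.

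Ffar3 was a minor transcript beside Ffar2. Its GUCY2Chi libraries measured 8.74, 4.34, 6.28, 12.4 and 1.76 cpm and its GUCY2Cmed libraries 0.0936, 0.161, 0.144, 0.30 and 1.03 cpm. The GUCY2Cmed library of mouse 15 held 12 of the 21 Ffar3 counts of its group, and within that mouse the ratio was 1.72, against 27 to 93.4 in the other 4 mice. Those larger ratios rest on 1, 2, 2 and 4 GUCY2Cmed counts in mice 2, 7, 12 and 14, so their size is poorly resolved. The log2 fold change was 4.25 (SE 0.71, adjusted p = 0.0011). With the mouse as block the edgeR adjusted p was 0.0104, which loses the call, and the limma-voom adjusted p was 0.00482, which keeps it.

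Since Ffar3 lies just downstream of Ffar1, the counts of the 2 genes were set side by side. For every 100 counts of Ffar1, the GUCY2Chi libraries of mice 2, 7, 12, 14 and 15 held 8.52, 4.80, 13.1, 17.9 and 7.80 counts of Ffar3. In GUCY2Cmed cells Ffar3 had 21 counts where Ffar1 had 4, so Ffar3 was counted in libraries with almost no Ffar1. Whether reads running on from Ffar1 contribute to Ffar3 was not tested.

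The odorant receptors Olfr78 (ENSMUSG00000043366, chr7:102738511-102759471, minus strand) and Olfr558 (ENSMUSG00000070423, chr7:102702215-102712064, plus strand) lie 26446 bases apart, also on chromosome 7. Olfr78 measured 4.17, 2.83, 2.20, 5.86 and 1.51 cpm in GUCY2Chi cells of mice 2, 7, 12, 14 and 15, and of the GUCY2Cmed libraries only that of mouse 12 held any count, 2. Its pooled ratio was 100, with a counting interval of 27.5 to 834, and its log2 fold change was 6.34 (SE 0.82, adjusted p = 2.06e-04). Olfr78 is known as a receptor for acetate and propionate. It overlaps Olfr560 on the same strand, a gene with no count in any library.

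Olfr558, known for responses to butyrate and branched short-chain acids, had no count in any GUCY2Cmed library. Its GUCY2Chi libraries held 6.72, 7.36, 2.50, 1.31 and 0.567 cpm, a 12.98-fold span from mouse 7 to mouse 15, the widest of the 10 receptors. Against 3 counts in each GUCY2Cmed library, it was at least 15.1-fold higher in GUCY2Chi cells. The adjusted p was 0.00232 without and 0.0117 with the mouse as block in edgeR, and 0.0012 with the block in limma-voom. The library of mouse 14 had the highest Olfr78 but the second lowest Olfr558, so the neighbouring genes ordered the mice differently.

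Casr and Gpr142 sense amino acids. Casr (ENSMUSG00000051980, chr16:36493696-36562141, minus strand) had no count in GUCY2Cmed cells and measured 4.84, 5.79, 1.59, 5.86 and 1.32 cpm in GUCY2Chi cells of mice 2, 7, 12, 14 and 15. The libraries of mice 12 and 15 were the lowest, each with 21 counts. Casr was at least 15.9-fold higher in GUCY2Chi cells, with an adjusted p of 6.79e-04 without and 0.0107 with the mouse as block in edgeR, and 5.12e-04 with the block in limma-voom. An absence of counts from all 5 GUCY2Cmed libraries, shared by Casr and Olfr558, was found for 0.923% of the genes tested.

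Gpr142 (ENSMUSG00000034677, chr11:114798924-114806745, plus strand), best known from pancreatic islets, was the more abundant of the amino acid sensors. Its GUCY2Chi libraries measured 12.1, 11.4, 4.54, 16 and 6.11 cpm, and its GUCY2Cmed libraries held 2 counts in all, 1 in mouse 7 and 1 in mouse 12. The pooled ratio was 310, with a counting interval of 85.4 to 2560, and the log2 fold change was 7.93 (SE 0.67, adjusted p = 1.43e-05).

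Lpar5 (ENSMUSG00000067714, chr6:125067920-125082472, plus strand) was the exception. Its sequence upstream of the first start is shown with that of Gpr119, the receptor with the largest fitted change in the other direction, in the same form as above. Neither stretch of 200 bases holds an E-box or the palindrome, so neither has capitals.
Lpar5, chr6:125067720-125067919, plus strand: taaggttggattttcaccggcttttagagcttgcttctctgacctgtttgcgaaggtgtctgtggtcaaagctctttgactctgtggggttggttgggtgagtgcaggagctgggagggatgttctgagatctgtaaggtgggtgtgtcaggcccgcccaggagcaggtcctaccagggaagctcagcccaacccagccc
Gpr119, chrX:48674479-48674678, minus strand: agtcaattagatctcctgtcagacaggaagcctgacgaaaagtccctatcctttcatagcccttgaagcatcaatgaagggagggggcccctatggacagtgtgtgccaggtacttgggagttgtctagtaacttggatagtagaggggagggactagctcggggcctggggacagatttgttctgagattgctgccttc

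Lpar5 measured 5.85, 4.34, 15, 5.01 and 15.7 cpm in GUCY2Chi cells of mice 2, 7, 12, 14 and 15, and 36.8, 13, 25.1, 34.3 and 44.1 cpm in GUCY2Cmed cells. GUCY2Cmed cells had more in 5 of 5 mice, by 1.67-fold in mouse 12 to 6.85-fold in mouse 14. The groups overlapped, because the GUCY2Chi libraries of mice 12 and 15 lay above the GUCY2Cmed library of mouse 7, whereas for 13.2% of all genes every GUCY2Chi library lay below every GUCY2Cmed library. The means were 9.174 ± 5.654 and 30.65 ± 11.98 cpm, with a log2 fold change of -1.74 (SE 0.44, adjusted p = 0.00947) and an exact two-sided permutation p of 0.0238.

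The call for Lpar5 stood close to the threshold and was lost in 11 of 21 alternatives, with the same sign in all of them. Leaving out any 1 of 7 of the 10 libraries ended it: mouse 2, 7 or 14 of the GUCY2Chi group, or mouse 2, 12, 14 or 15 of the GUCY2Cmed group. The log2 fold change over the 10 omissions was -1.99 to -1.52, with adjusted p from 0.0052 to 0.0353. Without the GUCY2Chi libraries of mice 12 and 15 it was -2.57 (adjusted p = 4.36e-04, with 14.4% of all genes called lower), and with the mouse as block in edgeR it was -1.84 (adjusted p = 0.00838). The libraries with the most Lpar5 in the GUCY2Chi group were those 2 with the highest enterocyte markers. Their part in the level of Lpar5 was not tested.

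**Figure D2:**
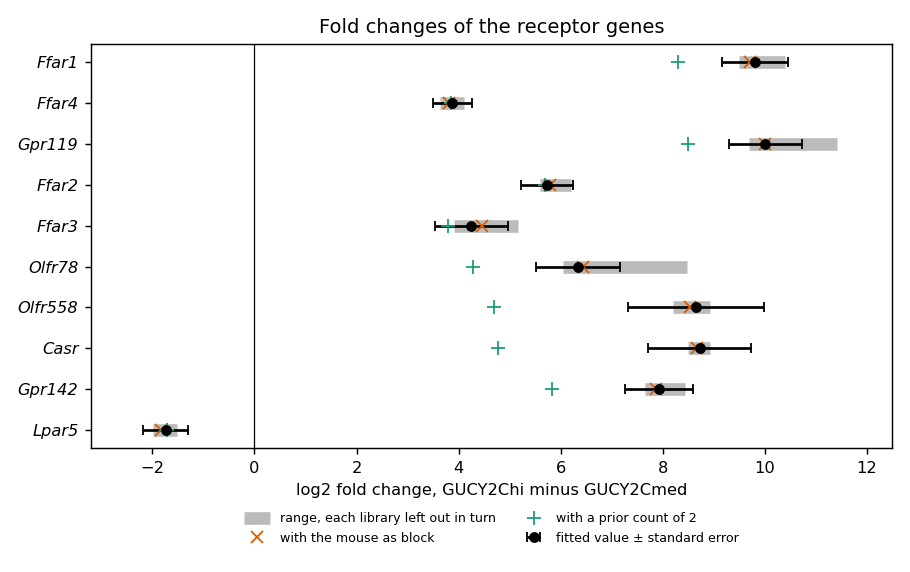
Fitted log2 fold change of each receptor, GUCY2Chi minus GUCY2Cmed. Points with bars are the fitted value ± SE, grey bands the range when each library is left out in turn, x signs the fit with the mouse as block and plus signs the fit with a prior count of 2. The 9 higher receptors lie right of 0 under each of these settings and Lpar5 left of it.

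As the plot of fold changes shows, the larger values moved with the prior count. Under a prior count of 2 in place of edgeR's default, Casr fell from 8.72 to 4.77, Olfr558 from 8.65 to 4.70, Olfr78 from 6.34 to 4.28 and Gpr142 from 7.93 to 5.83 on the log2 scale. The size of change for receptors at or near 0 counts in GUCY2Cmed cells is therefore better read from the bounds and counting intervals. Single GUCY2Cmed libraries also set these values: without that of mouse 12 the fit for Olfr78 was 8.48, without that of mouse 2 the fit for Gpr119 was 11.41, and without that of mouse 15 the fit for Ffar3 was 5.16. Without the GUCY2Chi libraries of mice 12 and 15 the same 9 receptors were called higher, beside 17.9% of all genes, and each of the 9 log2 fold changes was larger, from 4.27 for Ffar4 to 10.43 for Gpr119. With the mouse as block in edgeR, 6 of the 10 receptors were called higher, where 8.24% of all genes were, and Ffar3, Casr and Olfr558 were not. With the block in limma-voom 9 were called higher, beside 11.6% of all genes.

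Levels of different receptors were compared per length, from the deposited FPKM (fragments per kilobase of transcript, scaled to the reads on genes). In GUCY2Chi cells Ffar2 was first, at 163 ± 68.45 FPKM (SD, n = 5), then Ffar4 at 92.1 ± 40.24, Gpr119 at 36.9 ± 17.54 and Ffar1 at 17.7 ± 9.308 FPKM. The steps from Ffar2 to Ffar4, from Ffar4 to Gpr119 and from Gpr119 to Ffar1 had the same order in all 5 libraries, as had the step from Ffar3 to Olfr558. Each of these 4 steps had an exact two-sided paired permutation p of 0.0625, the smallest that 5 libraries allow, so none can pass 0.05. Gpr142 (9.99 FPKM), Lpar5 (8.29) and Ffar3 (4.99) changed places between libraries, and so did Olfr558 (1.39), Casr (1.34) and Olfr78 (1.25).

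**Figure D3:**
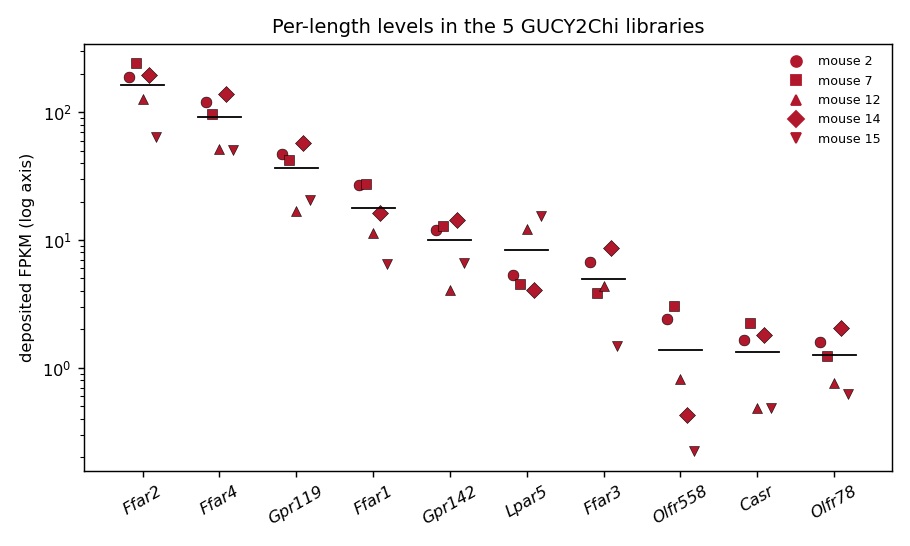
Deposited FPKM of each receptor in the 5 GUCY2Chi libraries on a log axis, ordered by the mean (bar), with 1 symbol per mouse. Ffar2, Ffar4, Gpr119 and Ffar1 lie in this order in every library, and Lpar5 is the only receptor with mice 12 and 15 on top.

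The first step of the order and the step from Ffar3 to Olfr558 rest on the gene length used. The FPKM of Ffar2 imply a length of 1226 bases, whereas the same table lists 2790. Implied and listed lengths also differed for Ffar3 (1429 against 1849), Lpar5 (1215 against 1515), Casr (3224 against 4718) and Olfr78 (2865 against 6033), and slightly for Gpr142 (1107 against 1116). With cpm per kilobase of the listed length, Ffar4 came first at 84.7 and Ffar2 followed at 65.3, in that order in 3 of 5 libraries. On that scale Ffar3 lay above Olfr558 in 4 of 5 libraries. Gpr119 and Ffar1 kept the third and the fourth mean. Within libraries the place of Ffar1 by deposited FPKM was less firm, since Gpr142 was above it in mouse 15 and Lpar5 in mice 12 and 15. In GUCY2Cmed cells the deposited values gave another order, with Lpar5 first at 22.7 ± 8.376 FPKM, Ffar4 next at 5.13 ± 1.656 and Ffar2 at 2.53 ± 1.706 FPKM, while each of the other 7 receptors averaged at most 0.208 FPKM.

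The GUCY2Chi libraries differed among themselves, and most receptors differed in the same direction. The libraries of mice 12 and 15 lay below each of the other 3 for 7 receptors (Ffar1, Ffar2, Ffar4, Gpr119, Casr, Gpr142 and Olfr78) and above each of them for Lpar5. Ffar3 and Olfr558 showed neither pattern. No share over all genes is given for these patterns, so the counts describe the list only. These 2 libraries were also the lowest in summed enteroendocrine markers, at 107400 and 44720 cpm against 147400 to 176600 cpm, and the lowest in Gucy2c, at 1020 and 549 cpm against 1530 to 1760 cpm. Their summed enterocyte markers were 33820 and 34680 cpm, against 3663 to 5105 cpm in the other 3.

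**Figure D4:**
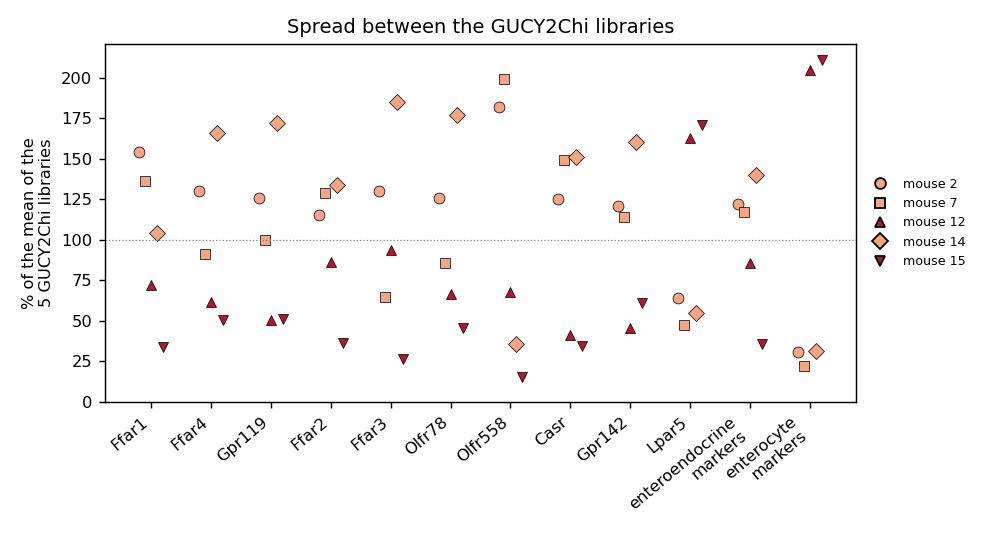
Level of each receptor and of 2 summed marker lists in the GUCY2Chi libraries, in % of the mean over the 5 libraries, with 1 symbol per mouse and mice 12 and 15 in dark red. For 7 receptors and the enteroendocrine markers, the dark symbols are the lowest, and for Lpar5 and the enterocyte markers they are the highest.

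As the plot of the spread shows, Ffar2 tracked the enteroendocrine markers closely. Per 1000 cpm of summed enteroendocrine markers, Ffar2 measured 1.36, 1.59, 1.46, 1.38 and 1.49 cpm in the GUCY2Chi libraries of mice 2, 7, 12, 14 and 15. The coefficient of variation was 6.4% on this scale and 40.01% as cpm. On the same scale the spread narrowed for 9 of the 10 receptors, while that of Lpar5 widened, to 0.0284 to 0.351. Ffar1 ran from 0.392 to 0.668, Gpr119 from 0.361 to 0.875 and Ffar4 from 0.676 to 1.33. No share over all genes is given for the narrowing, so the count of 9 describes the list only.

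GUCY2Cmed libraries gave other values on this scale. Ffar2 measured 2.68 to 44.4, Ffar3 0.159 to 2.71 and Ffar4 8.89 to 51.4 cpm per 1000 cpm of enteroendocrine markers, and for these 3 receptors and Lpar5 all 5 GUCY2Cmed libraries lay above the highest GUCY2Chi library. Ffar1, Gpr119, Casr and Olfr558 did not exceed the GUCY2Chi range in any GUCY2Cmed library, and Gpr142 and Olfr78 did in 1 each. These 6 had at most 3 counts per GUCY2Cmed library, so single counts decide where they fall. For Gpr142, 1 count in mouse 7 gave 0.499, against at most 0.137 in GUCY2Chi cells. The Ffar3 values also rest on few counts, 1, 2 and 2 in GUCY2Cmed cells of mice 2, 7 and 12. In that group the denominator was small and went with the forebrain markers: in mice 2, 7, 12, 14 and 15 the enteroendocrine sum was 589.5, 161, 590.8, 582.4 and 378.7 cpm and the forebrain sum 620.1, 16.14, 820.3, 611.3 and 298.8 cpm. Cpe, Pcsk1n and Cck, with means of 85.2, 82.1 and 73.0 cpm, were the largest terms of the enteroendocrine sum there. How far forebrain transcripts set these ratios was not tested. For Ffar2 the highest GUCY2Cmed value, 7.15 cpm in mouse 7, was in the library with the lowest enteroendocrine sum, 161 cpm, and with 11.48 cpm of leukocyte markers, near the lower end of the 11.33 to 42.05 cpm in that group. Which cells carried these transcripts was not tested.

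Genes whose pattern was most like each receptor's were found by the root-mean-square difference of centred log2 cpm over the 10 libraries, among 9977 genes of at least 5 cpm on average. Nearest to Ffar1 was Asic5 (0.375), an acid-sensing ion channel family gene, and nearest to Gpr119 was Scgn (0.464), which encodes the calcium-binding protein secretagogin. Gch1 (0.303), the first enzyme of tetrahydrobiopterin synthesis, was nearest to Ffar4. Casr lay nearest to Slc18a2 (0.348), the vesicular monoamine transporter, and Olfr78 to the nuclear receptor gene Nr4a2 (0.355). Klb (0.442), the co-receptor of endocrine fibroblast growth factors, was the second nearest to Gpr142 after Gm17641 (0.335). For Ffar2 they were Gm11992 (0.334) and the phosphodiesterase gene Pde11a (0.418). For Ffar1, Gpr119, Casr, Gpr142, Olfr78 and Olfr558 the 5 GUCY2Cmed libraries were at or under 3 counts, so their likeness over 10 libraries also rests on differences that the depth does not resolve.

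Lpar5 had the closest likeness of all, to the riboflavin kinase gene Rfk (0.21) and the amino acid transporter gene Slc43a2 (0.238), both with lower means in GUCY2Chi cells. The weakest were Ffar3, to 5330417C22Rik (0.601) and Ffar4 (0.609), and Olfr558, to Ptprn2 (0.665), a dense-core vesicle protein gene, and Kif12 (0.672). This measure includes the difference between the groups, so it was repeated within the 5 GUCY2Chi libraries. There Ffar2 lay nearest to the secretory granule gene Resp18 (0.0548) and to Ets1 (0.0573), and Olfr78 to Rcn1 (0.0358) and Qpct (0.0511), the glutaminyl cyclase of peptide hormones. The nearest genes were other ones than over the 10 libraries: Kif12 (0.0784) for Ffar1, Cln6 (0.0722) for Ffar4, Tcp11l2 (0.0759) for Gpr119, Pdzrn3 (0.0784) for Casr, Atp23 (0.118) for Gpr142, Gm39149 (0.228) for Ffar3, Rrbp1 (0.269) for Olfr558 and Aco1 (0.07) for Lpar5. Among the receptors themselves, Ffar4 and Olfr78 were nearest to each other (0.0899), and Gpr119 was nearest to Ffar4 (0.14).

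RefSeq promoters were found for 9 of the 10 receptors, 14 promoters in all, with none for Olfr78. An E-box stood within 250 bases upstream of the start in 12 of the 14 promoters, beside 66.2% of all promoters. By gene, with a match in any of its promoters, these were 7 of the 9 receptors, and not Ffar4 or Gpr119. The variant CAGATG, which is one form of the E-box, stood in 5 of the 14 promoters, beside 14.4% of all. These belong to 4 receptors (Ffar1, Ffar3, Lpar5 and Olfr558). The GC box GGGCGG stood in 5 of the 14 promoters, of Ffar2, Ffar4 and Lpar5 (32.7% of all promoters). The motif AGATAA, of the type bound by GATA factors, stood in 2 of the 14, of Ffar3 and Lpar5 (9.99%). No receptor had TGTTTAC, a forkhead motif (3.17%), TAATTA, a homeobox core (4.84%), or TATAAA (12.4%) in this window. Lpar5, lower in GUCY2Chi cells, held the same E-box variant as 3 higher receptors, so these letters did not separate the directions. The RefSeq start of Ffar1 is the start of its coding sequence, and its upstream window lies partly inside the transcript of the deposited table.

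The other receptors for metabolites and lysolipids were described from a list of 28, of which 17 could be tested. In GUCY2Chi cells 6 were called higher and 2 lower, beside 13.9% and 8.79% of all genes, with a median log2 fold change of 1.10. The number lower was near that background. Hcar1, the lactate receptor, was called higher (log2 fold change 7.14, adjusted p = 6.91e-05), with 8.07 ± 3.67 cpm against 0.0472 ± 0.0685 cpm. So were the bile acid receptor Gpbar1 (5.88, adjusted p = 2.56e-04), Hcar2 (4.92, adjusted p = 0.00637), the cannabinoid receptor Cnr1 (3.97, adjusted p = 4.54e-04), Gpr183 (3.69) and S1pr2 (1.84). Gpr35 (-1.86, adjusted p = 0.00506) and Lpar1 (-1.64, adjusted p = 4.83e-04) were called lower. With the mouse as block in edgeR, Hcar2 (adjusted p = 0.0446), Gpr183 (0.0269) and Gpr35 (0.0113) were not called. With the block in limma-voom, Hcar2 (adjusted p = 0.0189) and Gpr183 (0.0107) were not called, and Gpr35 (0.00657) was.

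Lysophosphatidic acid receptors did not move as a family. Lpar1 measured 16.1 ± 5.89 cpm in GUCY2Chi and 50.5 ± 9.09 cpm in GUCY2Cmed cells, the same direction as Lpar5. Lpar3 (log2 fold change 0.43, adjusted p = 0.383) and Lpar6 (0.79, adjusted p = 0.128) missed the threshold. Lpar2 and Lpar4 were below the filter. Enpp2, which encodes autotaxin, the enzyme that makes lysophosphatidic acid, was called higher in GUCY2Chi cells, at 37.4 ± 22.0 against 2.73 ± 1.62 cpm (log2 fold change 3.77, adjusted p = 0.0011, and 0.0125 with the mouse as block in edgeR). Plpp1, a phosphatase that degrades it, was called lower at 94.9 ± 47.5 against 299 ± 55.5 cpm (-1.66, adjusted p = 0.00247).

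Of 35 genes that act downstream of these receptors, 31 were tested, 10 were called higher and 3 lower, with a median of 0.78, beside 13.9% higher and 8.79% lower over all genes. The number lower was near that background. Phospholipase C genes split: Plcb4 was called higher (4.07, adjusted p = 9.12e-05) and Plcb3 lower (-2.35, adjusted p = 5.1e-04). Adcy8, a calcium-stimulated adenylyl cyclase, was called higher (3.23, adjusted p = 6.49e-04), as were Gnai1 (2.92) and Gnaz (2.50), both of the Gi family. Gna11, of the Gq family, was called lower, at 311 ± 193 against 1070 ± 86.6 cpm (-1.79, adjusted p = 0.00436), and so was Gna13 (-0.62). Gnaq (0.93, adjusted p = 0.0159) and Gnas (0.66, adjusted p = 0.114) missed the threshold. With the mouse as block in edgeR, 2 were called higher, Plcb4 and Grk3, which is below the 8.24% of all genes in that fit. Adcy8 (adjusted p = 0.0112), Gnai1 (0.0169), Gnaz (0.0506) and Gna13 (0.0282) were not called there. In limma-voom with the block 6 were called higher, without Gnaz (0.0293), beside 11.6% of all genes. Gna13 (0.0239) was not called lower there. This left 2 lower in both blocked fits, beside 4.96% of all genes in edgeR and 8.8% in limma-voom.

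Of 16 genes that take up, bind or process the ligands, 1 was called higher (Enpp2) and 4 lower. Over all genes the shares were 13.9% and 8.79%. The median of the 16 was -1.89. The lower genes were Slc7a8 (-2.01, adjusted p = 0.00108), Plpp1, Slc16a1, a transporter of short-chain monocarboxylates (-1.59, adjusted p = 0.005), and Slc3a2 (-1.56, adjusted p = 0.00355). The fatty acid handling genes Fabp2 (-2.30, adjusted p = 0.0507), Mogat2 (-2.34, adjusted p = 0.0231), Dgat1 (-2.08, adjusted p = 0.0107) and Cd36 (-1.90, adjusted p = 0.0239) missed the threshold. Their GUCY2Chi libraries spread widely, as for Fabp2, from 415 to 7630 cpm. With the mouse as block, 7 of the 16 were called lower in edgeR, beside 4.96% of all genes, and 12 in limma-voom, beside 8.8%. Without the GUCY2Chi libraries of mice 12 and 15 the number was 12, beside 14.4%.

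**Figure D5:**
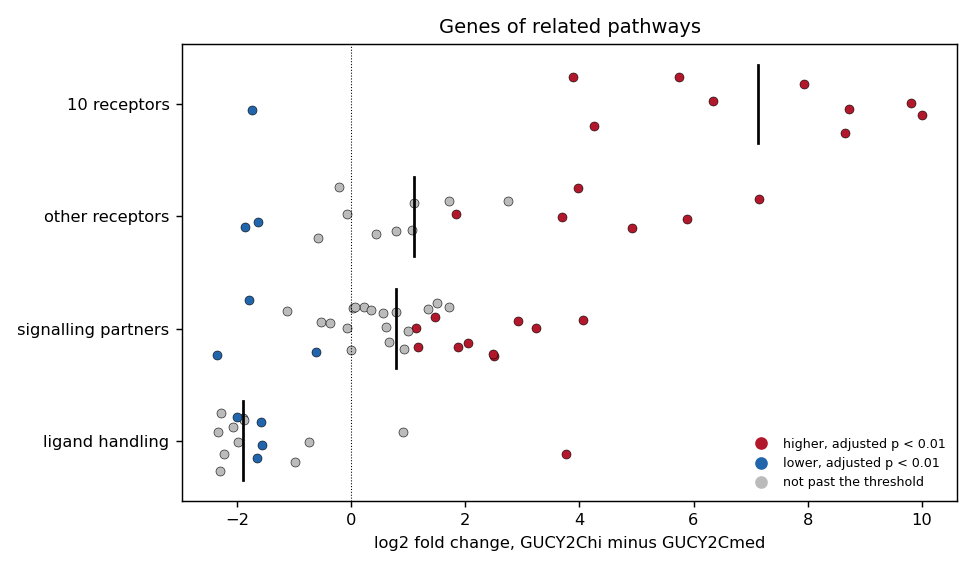
Log2 fold change (GUCY2Chi minus GUCY2Cmed) of each tested gene in the 10 receptors, other receptors (17), signalling partners (31) and ligand handling genes (16), with a bar at each list's median. Points are spread vertically for legibility, and red points were called higher, blue points lower and grey points neither, and the list medians are 7.14, 1.10, 0.78 and -1.89.

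The plot of related pathways sets these lists side by side. The 9 higher receptors lie above the medians of the 3 other lists, and Lpar5 lies among the lower ligand handling genes. The enterocyte markers Fabp1, Fabp2 and Slc15a1 also stand in the ligand handling list.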

How the data were processed

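RNA of sorted small intestinal cells was sequenced in 10 libraries, 1 GUCY2Chi and 1 GUCY2Cmed library for each of 5 mice. The deposited counts are unnormalized reads per gene, produced by the provider after STAR alignment of read pairs. The FPKM values, as deposited by the authors, divide counts by gene length and by reads on genes. The tool that counted reads and its strand setting are not given in the sources used here. The labels name build mm9, but gene positions matched GRCm38 for 99.8% of 37708 symbols and NCBIM37 for 9.38% of 32640, so positions are given on GRCm38. The submitters' processing notes name limma 3.40.6 and edgeR 3.26.8. The authors' own comparison (fold changes and p-values) was not used.

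Groups were compared with edgeR 4.0.16 in R 4.3.3 (TMM factors, quasi-likelihood test, no term for the mouse, Benjamini-Hochberg adjustment over 15703 genes, threshold 0.01). The filter was more than 0.5 cpm in at least 3 libraries, as in the study's methods. Standard errors were derived from the fold change and the F statistic. The biological coefficient of variation was 0.4585. Levels are TMM-normalized cpm. Depth was 13090212 to 13520800 counts in GUCY2Chi and 10903958 to 15307932 in GUCY2Cmed libraries. A floor of 3 counts per library and 95% exact binomial intervals cover counting error only. Permutation tests were exact and two-sided on log2(cpm + 0.1), with raw p. Tables came from pandas 2.3.3, with scipy 1.17.1 for exact tests, and figures from matplotlib 3.10.9. The test was checked on simulated data without an effect of the mouse, and the outcome is not reported here.

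Each mouse was sorted into both groups, and libraries with the same number were taken as those of 1 mouse, which the labels do not state. Deviations of same-numbered libraries from their group means correlated with r of -0.223 to 0.2716, over 0.1 in 1 of 5 pairs. For libraries of different numbers r was -0.5126 to 0.5416, a range that holds the one of same-numbered pairs. The block for the mouse was an alternative, beside limma-voom 3.58.1, DESeq2 1.42.0, other scalings and filters, and each library left out in turn. Leaving out the GUCY2Chi libraries of mice 12 and 15 together and a prior count of 2 were added after seeing the data. The 10 receptors and all lists were chosen with earlier results of these data known. All 10 receptors are named. Of other lists, the 4 genes with the largest changes past the threshold in each direction were named, and other genes named were chosen after their values were seen.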

Additional observations from a re-analysis of the deposited data

How the results depend on the processing

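The 9 receptors called higher and Lpar5 kept their direction under every alternative run. With at least 10 counts required in every library, only Ffar2, Ffar4 and Lpar5 of the 10 receptors were tested. Of these, 2 were called higher and 0 lower. In the same fit 0 other receptors, 5 signalling partners and 0 ligand handling genes were called higher, with 1 other receptor lower. Over all genes it called 14.2% higher and 9.05% lower. Lpar5 was not called with RLE factors, upper-quartile factors or library size alone, which leaves 0 lower. Of all genes, 8.06%, 7.62% and 3.55% were called lower in these fits, in that order. With single libraries left out the count of receptors lower was 0 to 1, beside 3.32% to 10.4% of all genes. Scaling by library size alone moved the median of all genes from 0.09 to 0.39. It gave 1 other receptor lower and 2 ligand handling genes higher, beside 3.55% of all genes lower and 18.5% higher.

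The replicate block for the mouse lowered the count over all genes from 2186 higher and 1381 lower to 1294 and 779 in edgeR. It gave 6 of the 10 receptors higher, 4 other receptors higher and 1 lower. Signalling partners were 2 higher and 2 lower, and ligand handling genes 0 higher and 7 lower. In limma-voom with the block 4 other receptors and 6 signalling partners were higher, and 2 signalling partners and 12 ligand handling genes were lower. That fit called 11.6% of all genes higher and 8.8% lower, and the 10 receptors kept their calls. Ligand handling genes called lower numbered 4, but 10 in limma-voom, 12 in DESeq2 and 7 with no filter. Of all genes, 11.4%, 14.2% and 3.96% were lower in these 3 fits. Without the GUCY2Chi libraries of mice 12 and 15, 12 ligand handling genes were lower and 2 higher, beside 14.4% and 17.9% of all genes. At an adjusted p under 0.05 the numbers were also 12 and 2, and 5 signalling partners were lower. That threshold called 21.4% of all genes higher and 17.6% lower. With each library left out in turn, the counts ran from 1 to 2 for other receptors lower, 4 to 10 for signalling partners higher, 1 to 3 for signalling partners lower and 1 to 9 for ligand handling genes lower. Over all genes these fits called 10.6% to 16.5% higher and 3.32% to 10.4% lower. Signalling partners called higher fell to 4 to 6 without the GUCY2Chi library of mouse 7 or 14, or the GUCY2Cmed library of mouse 2, 14 or 15. Those called lower fell to 1 without the GUCY2Chi library of mouse 2, 7 or 14, or the GUCY2Cmed library of mouse 2, 14 or 15. Other receptors called lower fell to 1 without GUCY2Chi mouse 2 or 7, or GUCY2Cmed mouse 2, 7, 12 or 15. Ligand handling genes called lower fell to 1 or 2 without GUCY2Chi mouse 2 or 14, or GUCY2Cmed mouse 2, 12 or 15, and rose to 9 without GUCY2Chi mouse 15. The FPKM order had 4 steps with the same order in all libraries, and 2 when lengths came from the table. The cause of these changes was not tested where none is named.

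Depth limits the receptors with at most 3 counts in GUCY2Cmed libraries: their absence from those cells cannot be told from a level under 0.216 to 0.281 cpm.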
